A study of Mus musculus with 51 samples.

Results

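The data were read at 10 transcription factor genes of the trophoblast, followed through the native chromatin immunoprecipitation (ChIP) data of the study: Cdx2, Eomes, Elf5, Tfap2c, Esrrb, Gata3, Hand1, Ets2, Tead4 and Gata2. They were taken by name as 10 of the 20698 autosomal protein-coding genes measured, together with the 1 kb windows over each gene and 5 kb around it (479 windows) and the 79 allelic peaks that the deposited tables assign to them. Of those peaks, 74 overlap the gene and 5 lie beside it.

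The study took mouse embryos at embryonic day 6.5, separated the extra-embryonic ectoderm (ExE) from the epiblast and measured 3 histone marks in each, H3K4me3, H3K27me3 and H3K36me3. The wild-type hybrids, B6/CAST and CAST/B6 with the mother named first, came from reciprocal matings of C57BL6/Babr (B6) and CAST/EiJ mice. In the third cross, matDKO/CAST, females of mixed B6 and 129 background with floxed Dnmt3a and floxed Dnmt3b carried a Zp3 Cre, which deletes both genes in the oocyte, and were mated to CAST males. Each of the 36 ChIP libraries was made from a pool, described as 4 epiblasts or 8 ExE, and each cross, tissue and mark has 2 libraries. By the protocol, the chromatin of a pool was split over the 3 antibodies and the input, so marks read from the same pool are not measured in separate embryos. In epiblast of CAST/B6 and matDKO/CAST the replicate numbers differ between marks, and the labels do not say what a number shares. The embryos of matDKO/CAST inherit the deleted alleles from the mother and undeleted ones from the father, so the deletion describes the oocyte and not a null embryo. The p-values below measure the spread between these pools.

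The ExE is the proximal part of the egg cylinder that holds the trophoblast stem cells, which depend on FGF4 from the neighbouring epiblast. Cdx2, Eomes, Elf5, Tfap2c, Esrrb and Ets2 are factors of the self-renewing stem cell network, Tead4 and Gata3 act when the trophectoderm is first set apart, and Gata2 and Hand1 are best known from the differentiating placenta and its giant cells. H3K4me3 marks active or poised starts of transcription, H3K27me3 is laid down by Polycomb at silent starts, and H3K36me3 builds up over the body of transcribed genes. The promoter of Elf5 is known as a methylation-sensitive gate between the embryonic and the trophoblast lineage.

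Promoter sequences are those of a table drawn from RefSeq on GRCm38.p6, in which 10 promoters matched 7 of the 10 genes; Tfap2c, Hand1 and Tead4 had no match in the table used. Elf5 and Cdx2 are shown because the largest tissue differences described here include theirs, Gata3 because it holds the most matches to an AP-2 motif among the promoters matched, and Esrrb because the start with the most H3K4me3 differs between the tissues; the start at which its H3K4me3 is higher in ExE, described further on, is not among those printed. The sequences below run 5′ to 3′ on the strand of the gene, stop at the annotated first exon, and carry their CpG dinucleotides in capitals.
Elf5 inner start, chr2:103423818-103424061, plus strand: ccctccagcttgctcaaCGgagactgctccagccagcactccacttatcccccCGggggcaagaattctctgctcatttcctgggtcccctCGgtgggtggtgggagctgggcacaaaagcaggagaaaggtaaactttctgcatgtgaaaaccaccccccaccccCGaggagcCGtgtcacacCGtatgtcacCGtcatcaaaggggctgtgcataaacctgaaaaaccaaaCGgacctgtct
Cdx2, chr5:147307271-147307499, minus strand: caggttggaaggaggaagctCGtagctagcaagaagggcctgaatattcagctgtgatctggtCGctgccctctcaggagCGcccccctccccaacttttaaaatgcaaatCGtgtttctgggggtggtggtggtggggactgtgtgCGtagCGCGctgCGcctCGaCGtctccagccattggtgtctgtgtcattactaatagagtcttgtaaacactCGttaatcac
Gata3 inner start, chr2:9878601-9878850, minus strand: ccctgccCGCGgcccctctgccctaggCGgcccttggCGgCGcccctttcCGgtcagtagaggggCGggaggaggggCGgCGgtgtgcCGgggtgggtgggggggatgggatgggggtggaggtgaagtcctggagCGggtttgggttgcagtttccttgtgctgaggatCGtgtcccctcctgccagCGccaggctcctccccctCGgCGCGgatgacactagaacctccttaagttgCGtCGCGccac
Esrrb outer start, chr12:86360867-86361116, plus strand: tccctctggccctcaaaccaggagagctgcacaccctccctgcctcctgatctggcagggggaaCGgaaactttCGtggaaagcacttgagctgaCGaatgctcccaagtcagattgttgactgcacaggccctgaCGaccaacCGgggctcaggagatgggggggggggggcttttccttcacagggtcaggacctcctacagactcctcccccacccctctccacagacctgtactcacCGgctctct
Esrrb first inner start, chr12:86421394-86421643, plus strand: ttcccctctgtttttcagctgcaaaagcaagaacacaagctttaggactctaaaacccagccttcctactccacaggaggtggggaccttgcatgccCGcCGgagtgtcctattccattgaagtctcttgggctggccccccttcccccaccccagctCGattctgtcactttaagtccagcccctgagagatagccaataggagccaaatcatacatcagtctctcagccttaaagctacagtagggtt
These stretches hold 8 CpG in Elf5, 11 in Cdx2, 19 in Gata3, 6 at the outer and 3 at the first inner start of Esrrb. Over the 250 bases before each start, the median was 10.5 CpG for the 10 promoters and 6 for all 32851 promoters of the table. The letters GCCNNNGGC, which AP-2 factors such as Tfap2c can bind, occurred on either strand in 3 of the 10 promoters (Gata3 with 3 matches, Cdx2 with 1, and an inner start of Gata2), against 13.7% of all promoters. The letters GGAATG of TEAD factors occurred in 2 of the 10 (an outer start of Elf5 and the inner start of Gata2), against 12.6% of all. The other motifs searched were in none of the 10. They were AGATAA of Gata factors, found in 9.99% of all promoters. CAAGGTCA of ESRRB was in 1.33% of all. GGAAGT of ETS factors was in 19.7% of all. AGGTGTGA of T-box factors was in 1.12% of all. TTTATNG of CDX factors was in 9.81% of all. GTCTGG of HAND1 with a partner was in 14.7% of all. The motifs were searched as exact letters, and these matches describe the sequence alone.

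For each gene, the signal at the start was the mean RPKM of the windows within 1 kb of 1 annotated start, the one with the most H3K4me3 over all 12 libraries of that mark, which is the 5′ end for Cdx2, Eomes, Hand1, Ets2 and Tead4 and an inner start for the other 5 genes. RPKM scales reads to the length of the window and the depth of the library, and differences are given on the scale of log2(RPKM + 0.5), ExE minus epiblast, with limma p-values adjusted over all 20698 genes. Each fit took all 12 libraries of a mark, so the spread behind a wild-type difference also comes from matDKO/CAST. Shares of all genes tested belong to this adjusted limma fit. They are no background for counts at an unadjusted p, with another scaling or with edgeR or DESeq2. Library depth, in units of 1e+06 reads, ran from 4.01 to 17.9 for H3K4me3, from 3.68 to 22.9 for H3K27me3, from 2.09 to 12.6 for H3K36me3 and from 7.17 to 90.6 for the inputs, which held 0.117 to 0.837 RPKM at the starts of the 10 genes. Levels are listed below in the order B6/CAST, B6/CAST, CAST/B6, CAST/B6.

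The first question is which of these genes carry more of the activating mark in the tissue of the stem cells. At the start site H3K4me3 was higher in ExE for 5 of the 10 genes (Cdx2, Elf5, Tfap2c, Gata3 and Gata2) and lower for 1 (Esrrb), while over all genes 1.86% were called higher in ExE and 8.07% higher in epiblast. The median difference was 0.73 for the 10 genes and -0.02 for all genes. The starts used decide this for Esrrb, as set out below. With the replicate number as a block the calls of Gata2 and Gata3 ended and Hand1 was added, so that 4 were higher and 1 lower. Over all genes 2057 were called, and 1249 to 1345 without B6/CAST ExE replicate 1 or 2 or CAST/B6 ExE replicate 1. The count for ExE depended on the scaling: it was 8 with each library centred on its median, with scaling to the 40th and 99th percentiles, with edgeR and with DESeq2, and Hand1, Ets2 and Tead4 were then added. Among all genes called, the share higher in ExE moved with it from 18.8% to 75.5% with the median centred, 66.4% with the percentiles, 36.1% with edgeR and 36.3% with DESeq2, and with the median centred the median of all genes rose from -0.02 to 0.22. The 1.86% of all genes is thus no background for the count of 8.

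Elf5 (ENSMUSG00000027186, chr2:103411688-103450989), an ETS factor that links the self-renewal genes to the stem cell state, had the widest gap of the 10. Its start held 2.78, 1.55, 0.405 and 0.672 RPKM of H3K4me3 in epiblast and 15.3, 11.8, 11.8 and 15.6 RPKM in ExE. The lowest ExE pool was thus well above the highest epiblast pool, and the epiblast pools of CAST/B6 were the lowest. The difference was 3.10 ± 0.23 (SE, n = 4 pools a tissue, limma, adjusted p = 0.00128), 8.59-fold, with 2.43 within B6/CAST (adjusted p = 0.0248) and 3.77 within CAST/B6 (adjusted p = 0.00763). This holds for the inner start at position 103424062 of chromosome 2, 12374 bp inside the gene. At the 5′ end of Elf5 the difference was 0.32 (limma, adjusted p = 0.342), with 0.0910 to 0.448 RPKM in epiblast and 0.167 to 0.574 RPKM in ExE, near the level of the inputs. The promoter printed above is that of the inner start, whose 8 CpG compare with 2 before the outer RefSeq start.

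Cdx2 (ENSMUSG00000029646, chr5:147300805-147307270), the homeobox factor needed for the trophectoderm, held 14.6, 9.21, 16.3 and 7.47 RPKM of H3K4me3 at its start in epiblast. In ExE it held 25.9, 22.0, 28.2 and 35.6 RPKM. The pools of the tissues did not overlap, although epiblast held a clear H3K4me3 signal too. The difference was 1.24 ± 0.26 (SE, limma, adjusted p = 0.018), 2.37-fold, and neither cross passed alone (1.01, adjusted p = 0.267, and 1.48, adjusted p = 0.0602). Without B6/CAST epiblast replicate 2, B6/CAST ExE replicate 1 or 2 or CAST/B6 ExE replicate 2, the difference was 1.09 to 1.30 and the call was lost (limma, adjusted p = 0.0537 to 0.0690).

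Tfap2c (ENSMUSG00000028640, chr2:172549593-172558622), an AP-2 factor of trophoblast and germ cells, held 22.1, 16.6, 11.9 and 12.8 RPKM of H3K4me3 in epiblast and 31.9, 25.9, 26.5 and 31.2 RPKM in ExE. All ExE pools were above all epiblast pools. The difference of 0.88 ± 0.16 (SE, limma, adjusted p = 0.0104) was 1.84-fold, with 0.57 within B6/CAST (adjusted p = 0.349) and 1.19 within CAST/B6 (adjusted p = 0.024).

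Gata2 (ENSMUSG00000015053, chr6:88193891-88207032), a zinc finger factor of the placenta, held 14.04, 14.3, 8.86 and 6.95 RPKM of H3K4me3 in epiblast and 22.3, 15.5, 17.8 and 19.3 RPKM in ExE. The tissues did not overlap, but 1 ExE pool lay only a little above the highest epiblast pool. The difference was 0.78 ± 0.14 (SE, limma, adjusted p = 0.00842), 1.72-fold, with 0.38 within B6/CAST (adjusted p = 0.57) and 1.19 within CAST/B6 (adjusted p = 0.0136). With the replicate block it was 0.73 and no longer called (limma, adjusted p = 0.0811). Gata3 (ENSMUSG00000015619, chr2:9857078-9890034), its relative that acts beside Cdx2 in the trophectoderm, held 20.8, 14.4, 14.6 and 10.2 RPKM in epiblast and 28.1, 22.8, 19.4 and 24.8 RPKM in ExE. Here the tissues overlapped, and the difference of 0.68 ± 0.18 (SE, limma, adjusted p = 0.0446) lost its call in 12 of 22 alternatives, among them 10 of the 12 that left out 1 library, every matDKO/CAST library included (0.55 to 0.76, limma, adjusted p = 0.0514 to 0.147). It stayed past the threshold without B6/CAST epiblast replicate 1 and without CAST/B6 epiblast replicate 2. With the replicate block it was 0.64 (limma, adjusted p = 0.0528). At the 5′ end of Gata3 it was 0.41 (limma, adjusted p = 0.419).

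Esrrb (ENSMUSG00000021255, chr12:86361117-86521628), the orphan nuclear receptor that acts in stem cells of both the trophoblast and the embryo, was highest in H3K4me3 at a different annotated start in each tissue. The first inner start, at position 86421644 of chromosome 12, is the one used here because it held the most H3K4me3 over all libraries. There epiblast held 12.3, 11.0, 8.55 and 7.17 RPKM and ExE held 8.59, 7.43, 3.69 and 3.73 RPKM. The ranges overlapped, B6/CAST was above CAST/B6 in both tissues, and within each cross the ExE pools were below the epiblast pools. The difference was -0.75 ± 0.11 (SE, limma, adjusted p = 0.00387), with -0.52 within B6/CAST (adjusted p = 0.172) and -0.99 within CAST/B6 (adjusted p = 0.0129).

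Esrrb has a further annotated protein-coding start at position 86470117, 48.5 kb into the gene from the first inner start. At this second inner start epiblast held 3.11, 1.66, 0.152 and 1.49 RPKM of H3K4me3 and ExE held 12.01, 11.4, 10.4 and 12.4 RPKM. All ExE pools were above all epiblast pools, the opposite order to the first inner start, and in ExE this start held more H3K4me3 than the first inner one (means of 11.5 and 5.86 RPKM). In matDKO/CAST it held 1.88 and 2.58 RPKM in epiblast and 7.09 and 13.5 RPKM in ExE, again without overlap. H3K27me3 there was 2.79, 3.33, 4.00 and 3.59 RPKM in epiblast and 1.55, 1.86, 2.10 and 1.52 RPKM in ExE, lower in every ExE pool. This start was looked at after the window values of Esrrb had been seen, so its values are a description with no test. At the 5′ end of Esrrb, 60527 bp upstream of the first inner start, the limma difference was -0.55 (adjusted p = 0.125) at levels below 1 RPKM in the wild-type libraries.

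Over the annotated protein-coding starts of the other 9 genes, none turned the order of the tissues in this way. Cdx2 has 1 such start. The other starts of Eomes, Elf5, Tfap2c, Hand1 and Tead4 either fell in the same windows as the one used, had the same order, or held at most 1.13 RPKM of H3K4me3 in every wild-type library, and those of Gata3, Gata2 and Ets2 had overlapping tissues with a higher mean in ExE.

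Eomes (ENSMUSG00000032446, chr9:118478212-118486132), a T-box factor used by the stem cells and later by the primitive streak, had the highest mean H3K4me3 of the 10 in both tissues. It held 47.4, 34.9, 47.2 and 40.9 RPKM in epiblast and 38.1, 35.3, 33.8 and 45.1 RPKM in ExE. The pools overlapped, and the difference of -0.16 ± 0.20 (SE, limma, adjusted p = 0.827) did not pass; its sign turned to 0.087 with the median centred and 0.095 with the percentiles. Ets2 (ENSMUSG00000022895, chr16:95702075-95721051), which mediates the response to FGF, had 24.5 to 35.9 RPKM in epiblast and 29.0 to 39.5 RPKM in ExE, a difference of 0.20 ± 0.16 (SE, limma, adjusted p = 0.644). Tead4 (ENSMUSG00000030353, chr6:128224288-128300823), the TEAD factor upstream of Cdx2, had 18.6 to 29.4 and 28.2 to 35.6 RPKM, a difference of 0.46 ± 0.17 (SE, limma, adjusted p = 0.158). These 3 genes had the highest mean H3K4me3 at the start in both tissues. Their order does not stand beyond the spread: the ranges of Eomes and Ets2 overlapped in both tissues, as did those of Ets2 and Tead4. The ranges of Tfap2c in both tissues, of Gata3 in epiblast and of Cdx2 in ExE reached into that of Tead4.

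Hand1 (ENSMUSG00000037335, chr11:57828705-57832818), the bHLH factor of giant cells and of early mesoderm, held 14.9, 11.3, 11.2 and 6.27 RPKM of H3K4me3 in epiblast and 18.6, 15.2, 21.2 and 22.6 RPKM in ExE. The pools of the tissues did not overlap. The difference of 0.85 ± 0.26 (SE, limma) stopped short of the threshold at an adjusted p of 0.0867 and passed in 7 of the alternatives, among them edgeR on the recovered reads.

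**Figure D1:**
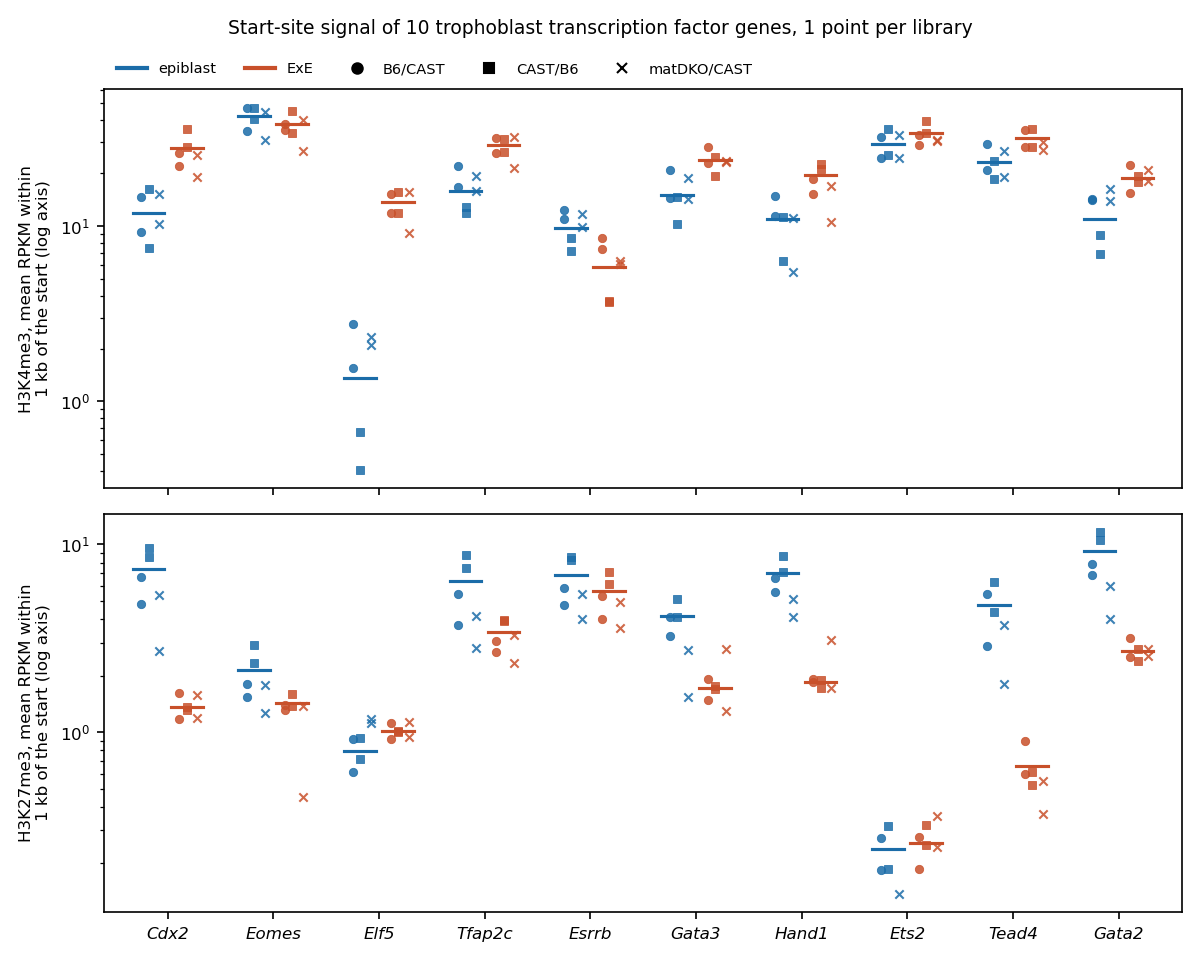
RPKM of H3K4me3 (top) and H3K27me3 (bottom) within 1 kb of the start of each of the 10 genes, on log axes; each symbol is 1 library, by tissue (colour) and cross (shape), and the short lines are the means of the 4 wild-type libraries of a tissue. For H3K4me3 the wild-type libraries of Elf5 are at 11.8 RPKM or more in ExE and 2.78 RPKM or less in epiblast, and Cdx2, Hand1, Tead4 and Gata2 are lower in ExE for H3K27me3 without overlap; a matDKO/CAST epiblast library with 0 RPKM of H3K27me3 at Ets2 has no symbol.

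H3K27me3 answers the converse question of where Polycomb signal sits. At the start it was lower in ExE for 6 of the 10 genes (Cdx2, Tead4, Hand1, Gata2, Gata3 and Tfap2c) and higher for 0, against 10.1% of all genes lower and 5.63% higher in ExE by the same limma test. That background of 3255 called genes rested on single libraries: it was 1325 to 1997 when any of 7 was left out (both ExE replicates of either cross, both CAST/B6 epiblast replicates or B6/CAST epiblast replicate 2). The median difference was -0.91 for the 10 genes and -0.05 for all genes. The share of all called genes that were higher in ExE was 35.8%, and ran from 24.7% to 49.4% with the other scalings and tools. No gene of the 10 was higher in ExE at an unadjusted p below 0.05 either, and edgeR and DESeq2 called 0 higher and 7 and 6 lower.

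The gap was widest at Tead4 and Cdx2. Tead4 held 2.86, 5.42, 6.27 and 4.37 RPKM of H3K27me3 at its start in epiblast and 0.601, 0.895, 0.524 and 0.611 RPKM in ExE. Every ExE pool was thus near the level of the inputs, and no pools overlapped. The difference was -2.14 ± 0.23 (SE, limma, adjusted p = 0.000753), and it passed within B6/CAST (-1.85, adjusted p = 0.0255) and within CAST/B6 (-2.43, adjusted p = 0.00607).

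Cdx2 held 4.84, 6.71, 9.52 and 8.55 RPKM of H3K27me3 at its start in epiblast and 1.18, 1.61, 1.37 and 1.31 RPKM in ExE. All 4 ExE pools were low and close together. The difference was -2.05 ± 0.19 (SE, limma, adjusted p = 0.00041), with -1.72 within B6/CAST (adjusted p = 0.019) and -2.37 within CAST/B6 (adjusted p = 0.00366). In epiblast the start of Cdx2 therefore held both marks; whether the same cells or different cells of a pool carried them cannot be told apart in bulk chromatin, where fewer cells with a mark and less of it per cell look alike.

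Hand1 held 5.60, 6.60, 8.65 and 7.14 RPKM of H3K27me3 in epiblast and 1.93, 1.86, 1.89 and 1.72 RPKM in ExE. Gata2 held 6.86, 7.88, 11.7 and 10.6 RPKM in epiblast, the highest mean of the 10 although its range overlapped that of Cdx2, and 3.17, 2.50, 2.78 and 2.40 RPKM in ExE. Neither gene had overlapping pools, and both kept more H3K27me3 in ExE than Tead4 did. The differences were -1.66 ± 0.16 for Hand1 (SE, limma, adjusted p = 0.000502) and -1.58 ± 0.15 for Gata2 (SE, limma, adjusted p = 0.000399), each past the threshold within each cross.

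Gata3 fell from 3.26, 4.10, 5.14 and 4.12 RPKM to 1.49, 1.93, 1.69 and 1.77 RPKM, with no overlap and a difference of -1.06 ± 0.21 (SE, limma, adjusted p = 0.0106). Tfap2c had 3.70, 5.42, 8.76 and 7.52 RPKM in epiblast and 3.05, 2.69, 3.97 and 3.90 RPKM in ExE. Its tissues overlapped through a single B6/CAST epiblast pool, and the difference was -0.76 ± 0.17 (SE, limma, adjusted p = 0.0151). Within B6/CAST neither gene passed (-0.92, adjusted p = 0.128, and -0.57, adjusted p = 0.215), and within CAST/B6 both did (adjusted p = 0.0489 and 0.0475). The call of Tfap2c was lost without B6/CAST epiblast replicate 2, B6/CAST ExE replicate 2, CAST/B6 epiblast replicate 1 or CAST/B6 ExE replicate 1 or 2 (-0.77 to -0.64, limma, adjusted p = 0.0516 to 0.0639).

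The remaining 4 genes did not pass at the start. Esrrb carried 4.76 to 8.61 RPKM of H3K27me3 in epiblast and 4.02 to 7.15 RPKM in ExE, where it was the highest of the 10, with a difference of -0.25 ± 0.16 (SE, limma, adjusted p = 0.341). Eomes had 1.53 to 2.90 and 1.31 to 1.60 RPKM, a difference of -0.43 ± 0.20 (SE, limma, adjusted p = 0.175) that passed with the replicate block (adjusted p = 0.0196). Elf5 had 0.617 to 0.936 RPKM in epiblast and 0.918 to 1.12 RPKM in ExE, and Ets2 had 0.183 to 0.315 and 0.186 to 0.320 RPKM. The wild-type inputs held 0.523 to 0.660 RPKM at Elf5 in ExE and 0.279 to 0.651 RPKM in epiblast, so Elf5 was above them in ExE, and Ets2 was below its ExE inputs (0.419 to 0.496 RPKM). The differences were 0.23 ± 0.12 for Elf5 (SE, limma, adjusted p = 0.229) and, for Ets2, 0.04 ± 0.12 (SE, limma, adjusted p = 0.869).

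**Figure D2:**
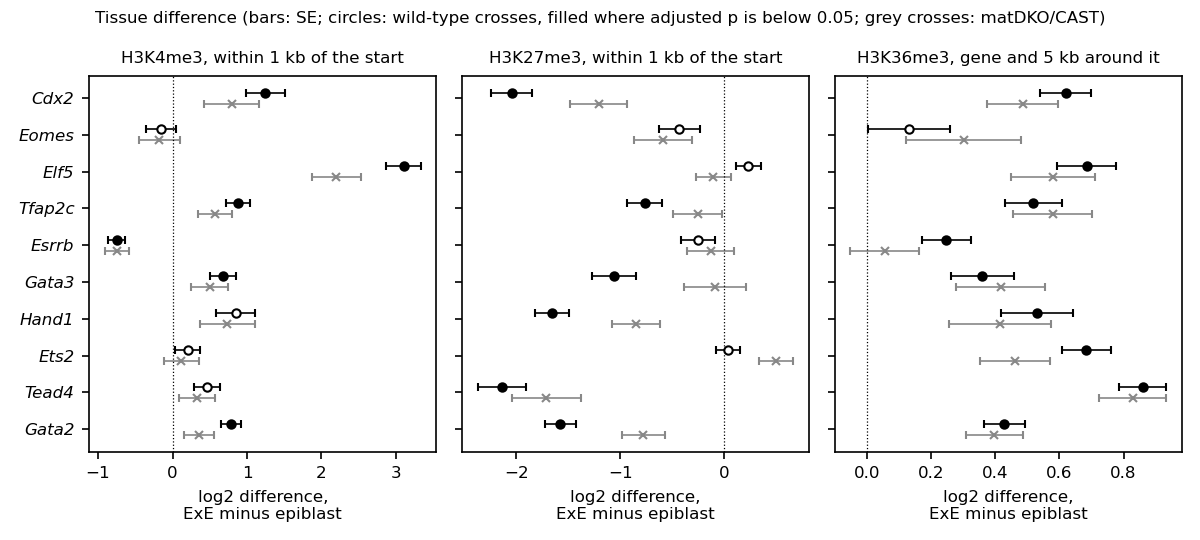
ExE minus epiblast on the scale of log2(RPKM + 0.5) for H3K4me3 and H3K27me3 within 1 kb of the start and for H3K36me3 over the gene and 5 kb around it; circles are the wild-type crosses, grey crosses are matDKO/CAST, and bars are the SE of the limma contrast. For H3K4me3 the circle of Elf5 is farthest right (3.10) and that of Esrrb is left of 0 (-0.75), for H3K27me3 Tead4 (-2.14) and Cdx2 (-2.05) are farthest left, and for H3K36me3 all 10 circles are right of 0.

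Over the whole gene and 5 kb around it, the picture of H3K27me3 widened to 7 genes lower in ExE (the 6 above and Eomes, -0.56 ± 0.10, SE, limma, adjusted p = 0.00344) and 1 higher, Elf5. The background was 9.85% of genes lower and 17.3% higher in ExE, the latter share falling as a part of all calls from 63.7% to 45.5% with edgeR and 53.2% with DESeq2. The 5612 calls behind it became 3207 to 3683 without B6/CAST epiblast replicate 2, B6/CAST ExE replicate 1 or CAST/B6 ExE replicate 1 or 2. Elf5 had 0.462, 0.479, 0.495 and 0.402 RPKM in epiblast and 0.660, 0.548, 0.628 and 0.776 RPKM in ExE, with no overlap at these low levels. Its difference was 0.26 ± 0.07 (SE, limma, adjusted p = 0.0213), and the call was lost without B6/CAST epiblast replicate 1 or 2, CAST/B6 epiblast replicate 2, B6/CAST ExE replicate 1 or CAST/B6 ExE replicate 2 (0.22 to 0.27, limma, adjusted p = 0.0542 to 0.0944). The wild-type inputs over Elf5 and its flanks held 0.568 to 0.678 RPKM in ExE and 0.491 to 0.588 RPKM in epiblast, so the mark was near input level. Esrrb had 0.931 to 1.37 RPKM in epiblast and 1.10 to 1.49 RPKM in ExE, a difference of 0.17 ± 0.08 (SE, limma, adjusted p = 0.153) that passed with the replicate block (adjusted p = 0.0466).

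Cdx2 lay wholly within this change. Over its gene it held 5.09, 7.53, 9.18 and 7.98 RPKM of H3K27me3 in epiblast and 1.28, 1.44, 1.30 and 1.29 RPKM in ExE, a difference of -2.09 ± 0.16 (SE, limma, adjusted p = 0.000347). All 18 of its windows were higher in every epiblast pool than in any ExE pool, as were all 15 of Hand1, 20 of 25 of Gata2, 22 of 44 of Gata3 and 21 of 87 of Tead4. Over the 10 genes 112 of 479 windows were higher in epiblast without overlap and 27 in ExE, where 2.91% and 5.54% of all windows are. These shares take in windows outside genes and are no background for windows of genes. Of the 27, Esrrb held 20 and Elf5 held 6.

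H3K4me3 over the whole gene was higher in ExE for 5 genes and lower for 0, against 3.64% and 7% of all genes. At an unadjusted p below 0.05 there were 8 higher and 0 lower, and edgeR and DESeq2 called 6 and 7 higher and 0 lower. The 3.64% and 7% belong to the adjusted limma fit and not to these counts. Elf5 rose by 1.28 ± 0.09 (SE, limma, adjusted p = 0.000329), Tfap2c by 0.98 ± 0.12 (adjusted p = 0.00132), Cdx2 by 0.95 ± 0.18 (adjusted p = 0.0116), Tead4 by 0.56 ± 0.08 (adjusted p = 0.00354) and Esrrb by 0.37 ± 0.08 (adjusted p = 0.0154). Cdx2 was not called without B6/CAST ExE replicate 1 (0.88, adjusted p = 0.0547), nor Esrrb without B6/CAST epiblast replicate 1, B6/CAST ExE replicate 1 or CAST/B6 ExE replicate 1 (0.32 to 0.36, adjusted p = 0.0536 to 0.0670) or with the replicate block (0.41, adjusted p = 0.0541), which added Hand1 (0.57, adjusted p = 0.0234). Within single crosses Elf5 and Tead4 passed in both, Cdx2 and Tfap2c in CAST/B6 only, and Esrrb in neither. The share of all called genes that were higher in ExE moved from 34.2% to 44.7% with the median centred and 76.2% with the percentiles, and the count of the 10 genes to 8 and 9. The 3.64% of all genes holds without these scalings and is no background for those counts. The 2203 calls over all genes became 1212 to 1459 without B6/CAST epiblast replicate 2, B6/CAST ExE replicate 1 or CAST/B6 ExE replicate 1. Esrrb thus had less H3K4me3 at its first inner start and more over its gene in ExE, which the windows separate.

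In single windows of Esrrb, the highest mean H3K4me3 of epiblast was 15.9 RPKM, 0.143 kb before the first inner start, and the highest of ExE was 16.8 RPKM, 48.9 kb after it. Of its 171 windows, 28 were higher in every ExE pool and 8 in every epiblast pool. The window of the second position holds the second inner start described above. For Elf5, 17 of 50 windows were higher in ExE and 0 in epiblast, with a highest ExE window of 22.2 RPKM at 0.439 kb after the inner start and a highest epiblast window of 2.16 RPKM at 16.4 kb. For Cdx2 the highest window was the same in both tissues, 0.770 kb after the start, with 60.8 RPKM in ExE and 24.7 RPKM in epiblast. Tfap2c had 14 of 20 windows higher in ExE, and Tead4 had 23 of 87 higher in ExE and 1 in epiblast. Eomes was the exception, with 3 of 19 windows higher in epiblast and 1 in ExE. Over the 10 genes 111 of 479 windows were higher in ExE and 15 in epiblast, against 3.99% and 0.948% of all windows, which again take in those outside genes.

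**Figure D3:**
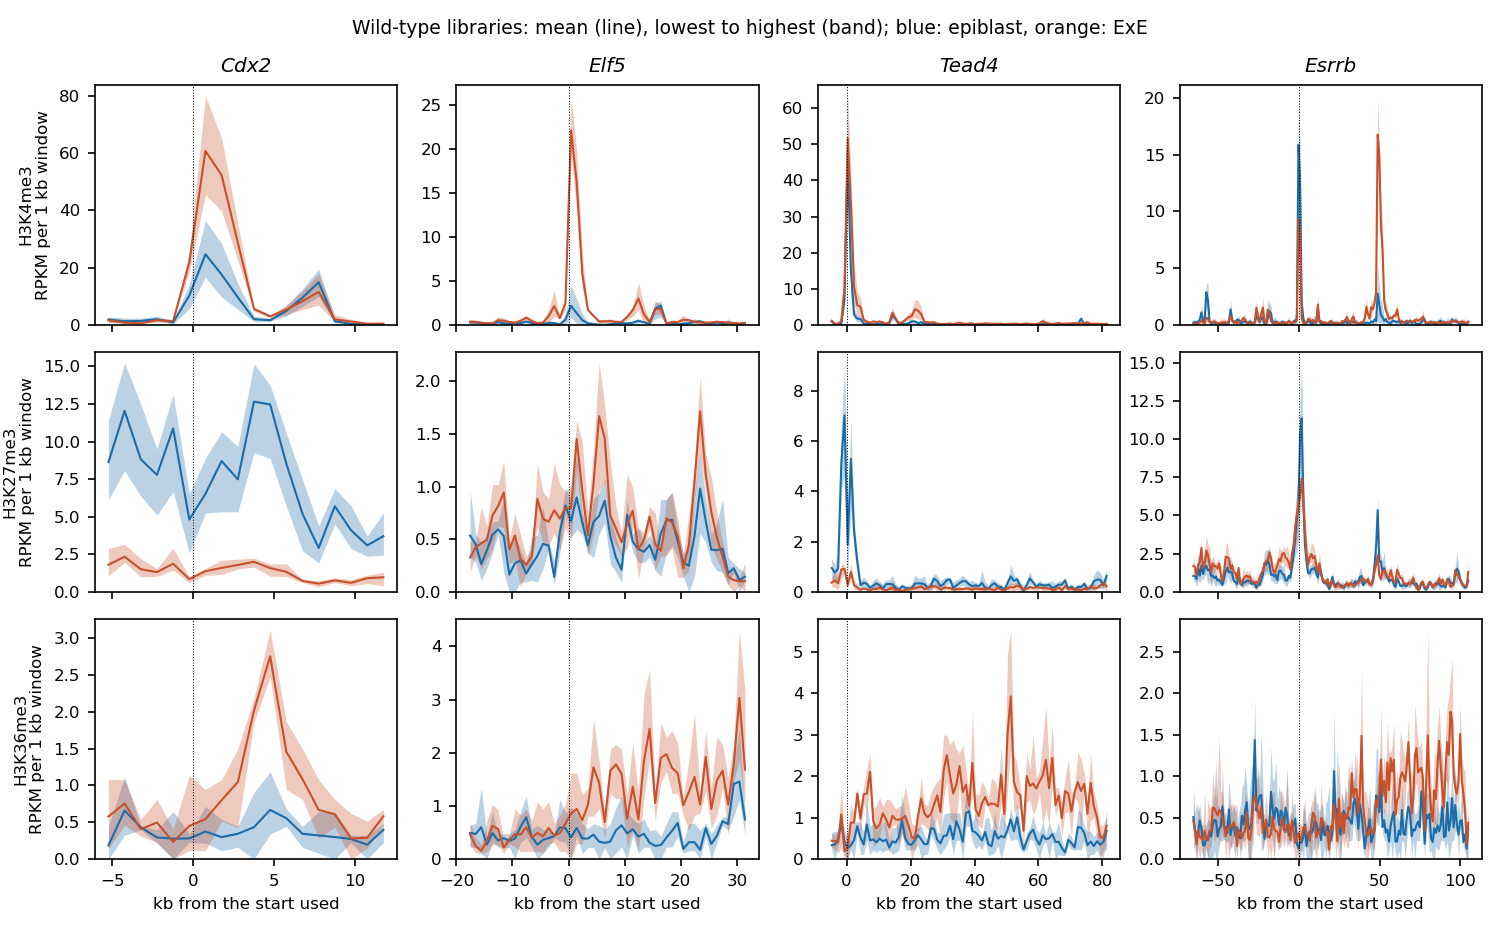
RPKM of H3K4me3, H3K27me3 and H3K36me3 in 1 kb windows along Cdx2, Elf5, Tead4 and Esrrb, by distance in kb from the start used, positive in the direction of transcription; lines are the means of the 4 wild-type libraries of a tissue and bands run from the lowest to the highest library. H3K27me3 of Cdx2 is high throughout in epiblast and low in ExE, H3K4me3 of Elf5 reaches 22.2 RPKM in ExE and 2.16 RPKM in epiblast, and H3K4me3 of Esrrb is highest at 48.9 kb in ExE and at -0.143 kb in epiblast.

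H3K36me3 was measured over the gene, where it accompanies transcription. It was higher in ExE for 9 of the 10 genes and lower for 0, but the background for this mark was wide, with 37.6% of all genes higher and 8.76% lower in ExE. At an unadjusted p below 0.05 the counts were the same, and edgeR and DESeq2 also called 9 and 0. Of the windows, 131 of 479 were higher in every ExE pool and 1 in every epiblast pool, against 2.52% and 3.38% of all windows. All windows include those outside genes, so these shares are no background for windows of genes. The median difference was 0.53 for the 10 genes and 0.10 for all genes. The share of all called genes that were higher in ExE was 81.1%, and fell to 54.4% with the median centred, 51.8% with the percentiles, 49.9% with edgeR and 59.0% with DESeq2.

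Tead4 had the widest gap, with 0.563, 0.538, 0.547 and 0.468 RPKM of H3K36me3 in epiblast and 1.65, 1.38, 1.25 and 1.22 RPKM in ExE. No pools overlapped, and the difference was 0.86 ± 0.07 (SE, limma, adjusted p = 0.000262), past the threshold within each cross. Of its windows 44 of 87 were higher in every ExE pool and 0 in every epiblast pool. The gene also holds a processed pseudogene, Gm21893, whose reads are counted with it.

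Elf5 had 0.535, 0.473, 0.525 and 0.410 RPKM in epiblast and 1.24, 1.06, 0.989 and 1.06 RPKM in ExE, a difference of 0.69 ± 0.09 (SE, limma, adjusted p = 0.000731). Ets2 had 1.14, 0.898, 1.22 and 1.15 RPKM in epiblast and 2.48, 2.24, 1.65 and 1.97 RPKM in ExE, a difference of 0.68 ± 0.08 (SE, limma, adjusted p = 0.000406). In both genes the tissues were well apart, and in Ets2 this stood beside H3K4me3 that differed little at the start. The end of Cat lies within 5 kb of Elf5 and is read with it.

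Cdx2 rose by 0.62 ± 0.08 (SE, limma, adjusted p = 0.000591), Hand1 by 0.53 ± 0.11 (adjusted p = 0.00479), Tfap2c by 0.52 ± 0.09 (adjusted p = 0.00175), Gata2 by 0.43 ± 0.06 (adjusted p = 0.00106) and Gata3 by 0.36 ± 0.10 (adjusted p = 0.0151). Of these only Gata2 had overlapping tissues, with 0.301 to 0.457 RPKM in epiblast and 0.430 to 0.922 RPKM in ExE, and within B6/CAST its difference was 0.18 (adjusted p = 0.129). Hand1 did not pass within B6/CAST either (0.29, adjusted p = 0.163), nor Gata3 within CAST/B6 (0.34, adjusted p = 0.138), and Gata3 lost its call without B6/CAST ExE replicate 1 (0.30, adjusted p = 0.0623). Esrrb rose by 0.25 ± 0.08 (SE, limma, adjusted p = 0.025), a call lost in 9 of 21 alternatives, among them each that left out a wild-type library other than B6/CAST ExE replicate 2 (0.21 to 0.26, adjusted p = 0.0541 to 0.0927). Eomes, at 0.928 to 1.16 and 0.965 to 1.37 RPKM, had a difference of 0.13 ± 0.13 (SE, limma, adjusted p = 0.434), which turned to -0.15 with the percentiles and -0.030 with edgeR. The windows of Gata3 and Eomes also hold other genes that overlap them, among them an antisense gene each.

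The peak lists, called per cross and tissue, give the same genes as domains. Every 1 of the 10 genes had an H3K4me3 peak in both wild-type lists of each tissue, as had 75.4% of all genes in epiblast and 75.3% in ExE. H3K27me3 peaks were in both lists for 8 of the 10 in epiblast (not Elf5 and Ets2, background 34.9%) and for 8 in ExE (not Tead4 and Ets2, background 55.6%). H3K36me3 peaks were in both lists for 4 in epiblast (Eomes, Elf5, Ets2 and Tead4, background 47.6%) and for 10 in ExE (background 54.7%). The epiblast peak counted for Elf5 began just before the end of the gene and ran on beyond it (chr2:103450500-103478000). It covered 4.49 and 5.49 kb of the gene and its flanks. For Tead4 the epiblast peaks, 3.5 kb long in each list, lay at different positions (from 128247000 and from 128265000).

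Some genes changed in the extent of their peaks. In Tead4 the H3K27me3 peak of epiblast covered 7 and 8.82 kb of the gene and its flanks in B6/CAST and CAST/B6, and ExE had none, while H3K36me3 peaks covered 3.5 kb in each epiblast list and 78 and 80.7 kb in ExE. Over the genome H3K27me3 peaks covered 226 and 229 Mb in epiblast against 503 and 609 Mb in ExE, so longer coverage in ExE was general for this mark. In Esrrb the H3K27me3 peaks covered 57.4 and 70.4 kb in epiblast and 120 and 143 kb in ExE. In Elf5 H3K4me3 peaks covered 6.5 and 2 kb in epiblast against 16.5 and 20 kb in ExE, and H3K27me3 peaks covered 16.5 and 34.3 kb in ExE against none in epiblast. Elf5 in ExE thus lay in called domains of both marks, the second at below 1 RPKM on average and near the level of the inputs over the gene. In Cdx2 a peak of H3K27me3 was called at the gene in ExE as well, 118 kb long in B6/CAST and 128 kb in CAST/B6, longer than the 49.5 and 45 kb peaks of epiblast although the mean level over the gene was lower. At Cdx2 the presence of a peak therefore did not follow the level. These lists carry no error, and no extent was tested.

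The dissected ExE was checked against lists of markers that were set beside the 10 genes. Among 12 other genes of trophoblast stem cells, H3K4me3 at the start was higher in ExE for 3 and lower for 0 (median -0.06), and H3K27me3 was lower for 5 and higher for 1 (median -0.37). Bmp4, which signals from the ExE to the epiblast, rose in H3K4me3 from 5.54 to 19.3 RPKM (1.76 ± 0.21, SE, limma, adjusted p = 0.00167), and Klf5, a Krüppel-like factor of early stem cells, rose from 17.2 to 32.7 RPKM (0.94, adjusted p = 0.018). Without 1 library the call of Klf5 was lost in 5 cases (adjusted p = 0.0531 to 0.0713), and with the replicate block it was lost too (adjusted p = 0.0795). In H3K27me3 Id2, an inhibitor of bHLH factors, fell from 3.10 to 0.260 RPKM (-2.19, adjusted p = 0.000599) and Klf5 fell from 4.80 to 0.809 RPKM (-1.98, adjusted p = 0.000525), while Satb1 rose from 0.395 to 1.05 RPKM (0.79, adjusted p = 0.0289), a sign that turned at its 5′ end (-0.41) and a call lost without 1 of 6 libraries (adjusted p = 0.0516 to 0.102).

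Among 13 genes of differentiated trophoblast, H3K4me3 was higher in ExE for 1, the retroviral envelope gene Syna (1.25 to 2.92 RPKM, 0.93, limma, adjusted p = 0.0314), with a median of 0.03; its call was lost without 1 of 5 libraries (adjusted p = 0.0704 to 0.113) and with the replicate block (adjusted p = 0.0577). H3K27me3 was lower in ExE for 2, the nuclear receptor gene Pparg (-0.98, adjusted p = 0.00117) and the homeobox gene Dlx3 (-0.74, adjusted p = 0.0138), with a median of -0.06; the call of Dlx3 was lost without any 1 of 4 libraries (adjusted p = 0.0510 to 0.0570). Of 10 epiblast genes 6 had less H3K4me3 in ExE and 0 more, with a median of -1.58, led by Pou5f1 (45.2 to 7.89 RPKM, -2.52, limma, adjusted p = 0.00536) and Otx2 (52.8 to 10.5 RPKM, -2.41, adjusted p = 0.00224). For H3K27me3 4 of these were higher in ExE and 0 lower, with a median of 0.49, led by Otx2 (1.55, adjusted p = 0.00528) and Fgf5 (1.15, adjusted p = 0.00884). The summed H3K4me3 of the 10 epiblast genes was 256 to 326 RPKM in epiblast and 94.3 to 147 RPKM in ExE, so the tissues were apart but the list was not at 0 in ExE. Of 6 genes of the primitive streak, 2 had less H3K4me3 in ExE, Fgf8 (-1.57, limma, adjusted p = 0.0022) and Gsc (-1.06, adjusted p = 0.0176), and 0 had more (median -0.65); the call of Gsc was lost without any 1 of 5 libraries (adjusted p = 0.0556 to 0.0702). H3K27me3 was higher in ExE for 1 of the 6, Fgf8 (3.15 to 5.36 RPKM, 0.70, adjusted p = 0.0115), and lower for 0 (median -0.39), and without B6/CAST ExE replicate 1 Fgf8 was not called (0.62, adjusted p = 0.0520).

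Some markers of the visceral endoderm, the layer that covers both tissues, also differed. Of 12 such genes 4 had more H3K4me3 at the start in ExE and 0 less (median 0.64), led by Cubn (5.01 to 16.2 RPKM, 1.63, limma, adjusted p = 0.0101) and Hnf4a (4.84 to 12.9 RPKM, 1.38, adjusted p = 0.0269), the latter lost without any 1 of 7 libraries (adjusted p = 0.0521 to 0.0916) and with the replicate block (adjusted p = 0.0633). Their summed H3K4me3 was 108 to 162 RPKM in epiblast and 144 to 211 RPKM in ExE, and none of the 12 was at 0 in either tissue. H3K27me3 at the start was lower in ExE for 6 of the 12 and higher for 0 (median -0.32), led by Amn (5.86 to 1.48 RPKM, -1.69, adjusted p = 0.00125) and Foxa2 (7.09 to 2.78 RPKM, -1.24, adjusted p = 0.00223). For H3K36me3 10 of the 12 were higher in ExE (median 0.53), against 37.6% of all genes, with sums of 5.55 to 6.82 RPKM in epiblast and 10.8 to 13.4 RPKM in ExE. In the other lists 6 of 12 trophoblast stem cell genes were higher for this mark. Of 13 differentiated trophoblast genes 0 were higher and 1 was lower, and of 10 epiblast genes 7 were lower. Of 6 primitive streak genes 0 differed. Several of the visceral endoderm genes move as the 10 trophoblast genes do, and the part of visceral endoderm cells in the differences above was not tested.

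The next question is whether loss of Dnmt3a and Dnmt3b in the oocyte changed these marks at the 10 genes. In matDKO/CAST, Elf5 held 2.11 and 2.33 RPKM of H3K4me3 at its start in epiblast and 9.09 and 15.7 RPKM in ExE. The epiblast pools lay in the wild-type range, and the ExE pools lay below it and just above it. Cdx2 held 5.36 and 2.72 RPKM of H3K27me3 at its start in epiblast and 1.19 and 1.58 RPKM in ExE, and Tead4 held 3.72 and 1.81 RPKM in epiblast and 0.368 and 0.550 RPKM in ExE. The order of the tissues was thus that of the wild-type crosses in every pool of these genes, and 1 epiblast pool of Cdx2 and of Tead4 lay below the wild-type range for H3K27me3. At Gata3 the tissues overlapped in H3K27me3 of matDKO/CAST, with 1.54 to 2.74 RPKM in epiblast and 1.29 to 2.76 RPKM in ExE. Those of Tfap2c did too, with 2.81 to 4.13 and 2.33 to 3.31 RPKM, while those of Hand1 and Gata2 did not. Both epiblast pools of matDKO/CAST lay below the wild-type range at the starts of Gata2 (3.99 and 6.02 RPKM) and Hand1 (4.08 and 5.14 RPKM). The same held at Gata3 (1.54 and 2.74 RPKM) and Ets2 (0 and 0.137 RPKM), and both lay above it at Elf5 (1.12 and 1.18 RPKM). At Ets2 the wild-type epiblast pools held only 0.183 to 0.315 RPKM, and 0 RPKM means no reads. Replicate 2 of matDKO/CAST epiblast had the lowest depth of all H3K27me3 libraries. How many of all genes lie outside the wild-type range in this way was not counted. That range takes in CAST/B6, whereas the tests below are against B6/CAST and over the gene, so these values are a description.

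Tested against B6/CAST in limma, over the gene and 5 kb around it, 0 of the 10 genes differed in matDKO/CAST for any mark in either tissue, where 0.00966% of all genes were called in ExE and 0.00483% in epiblast for H3K4me3, 0% and 0.058% for the Polycomb mark, and 0.0725% and 0.0242% for the transcription mark. The background for H3K27me3 in ExE turned on 1 library: 0 genes were called with all, 3224 without matDKO/CAST replicate 2 and 4 without replicate 3, while the count of the 10 genes was 0 each time. The 15 genes called for H3K36me3 in ExE became 0 without any 1 of the 4 libraries, and the 12 for H3K27me3 in epiblast became 1 to 7. At an unadjusted p below 0.05 there were 0 of the 10 for H3K4me3 in both tissues, 1 for H3K27me3 in epiblast (Gata2) and 1 for H3K36me3 in epiblast (Ets2), and edgeR called 0 as well. For H3K4me3 the log2 differences lay between -0.36 (Hand1) and 0.04 (Ets2) in ExE, and between -0.43 (Hand1, SE 0.28) and 0.09 (Ets2) in epiblast. For H3K27me3 they lay between -0.13 (Gata3) and 0.15 (Ets2) in ExE and between -0.54 (Hand1, SE 0.25) and 0.11 (Esrrb) in epiblast. For H3K36me3 they lay between -0.26 (Eomes) and 0.06 (Gata3) in ExE and between -0.26 (Eomes) and 0.36 (Ets2, SE 0.11) in epiblast. With 2 pools a group, a missed threshold does not show that the genes are alike in the crosses.

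The change of the tissue difference itself, matDKO/CAST against B6/CAST, was called in limma for 0 of the 10 genes and any mark, against 0% of all genes for H3K4me3, 0.0145% for H3K27me3 and 0% for H3K36me3. At an unadjusted p below 0.05 there was 1, Ets2 for H3K36me3, and edgeR called 0. For H3K27me3 of Hand1 the change was 0.63 and rose to 1.25 with the replicate block, in which it passed (limma, adjusted p = 0.0333). The cross has 1 replicate number that both tissues share for this mark. These comparisons and those of the tissues share the B6/CAST libraries.

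The allelic tables split reads between the parents, which asks whether any of the 10 genes is marked on 1 parental or 1 strain's allele. Of the 79 peaks 63 were informative, with at least 20 reads on an allele of a wild-type library. None of them was called imprinted or strain-specific in both crosses by edgeR, and 0 by DESeq2. Among all informative peaks of the autosomes, those called imprinted made up 0.108% (epiblast) and 0.319% (ExE) of H3K4me3 peaks, 0.325% and 1.35% of H3K27me3 peaks, and 0.0632% and 0.251% of H3K36me3 peaks. Strain-specific peaks made up 0.841% and 3.96%, 1.01% and 4.32%, and 0.424% and 1.1% in the same order. At an unadjusted p below 0.05 in both crosses, 0 peaks had the same parent higher, and 3 H3K27me3 peaks of ExE (Tfap2c, Cdx2 and Ets2) and 1 H3K4me3 peak of ExE (Esrrb) had the same strain higher. How many of all informative peaks meet this looser rule was not counted.

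The Esrrb peak just named, 2 kb long (chr12:86432500-86434500), rested on few reads. It held 24 maternal and 10 paternal, then 19 and 8 reads in B6/CAST, and 6 and 12, then 2 and 10 in CAST/B6. The B6 allele was higher in each of the 4 libraries, with log2 ratios of paternal to maternal of -1.20 and 1.39 (edgeR, adjusted p = 0.0605 and 0.194).

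When the 2 alleles of a library were compared within it, 3 H3K27me3 peaks of ExE (Cdx2, Esrrb and Tfap2c) passed as strain-specific, where the background rose to 5.77%. Cdx2 (chr5:147293500-147421500) held 858 maternal and 692 paternal, then 641 and 565 reads in the B6/CAST libraries, and 1068 and 1172, then 627 and 752 reads in the CAST/B6 libraries. The B6 allele was higher in each of the 4 libraries, with log2 ratios of paternal to maternal of -0.18 in B6/CAST and 0.17 in CAST/B6 (edgeR, adjusted p = 0.0227 and 0.014). Esrrb (chr12:86506000-86702000), with 1613 and 1426, 1197 and 1023, 2393 and 2802, and 1300 and 1382 reads, showed the B6 allele higher as well, with ratios of -0.12 and 0.15 (edgeR, adjusted p = 0.039 and 0.00459). Tfap2c (chr2:172531000-172586500), with 216 and 259, 183 and 229, 461 and 444, and 315 and 238 reads, had the CAST allele higher, with ratios of 0.37 and -0.21 (edgeR, adjusted p = 0.00355 and 0.0453). These are differences of small size in domains of 128, 196 and 55.5 kb that reach beyond the genes.

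A few peaks passed in a single cross by edgeR. At the 5′ end of Esrrb an H3K27me3 peak of epiblast (chr12:86343500-86374000) held 207 maternal and 123 paternal, then 94 and 71 reads in CAST/B6 (log2 -0.63, edgeR, adjusted p = 0.00111), and 111 and 117, then 55 and 64 reads in B6/CAST (0.24, adjusted p = 0.855). The CAST allele was higher in all 4 libraries. The H3K27me3 peak of Elf5 in ExE (chr2:103418000-103451000) held 122 and 140, then 77 and 114 reads in B6/CAST (0.43, edgeR, adjusted p = 0.0385), and 177 and 152, then 161 and 131 reads in CAST/B6 (-0.28, adjusted p = 0.158), again with the CAST allele higher in each. The Tfap2c peak above passed in B6/CAST alone without the library block (adjusted p = 0.0178 and 0.0975).

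Over the informative peaks, the mean paternal share of the 2 libraries of a cross was centred near equality. With B6/CAST given before CAST/B6, the medians of H3K4me3 were 50.1% and 47.6% in epiblast and 47.2% and 50.6% in ExE. Those of H3K27me3 were 48.1% and 49.9%, then 46.6% and 52.0%. Those of H3K36me3 were 47.9% and 47.5%, then 46.6% and 51.1%. For H3K4me3 in ExE the lowest share in B6/CAST and the highest in CAST/B6 were those of the Esrrb peak with few reads, at 29.5% and 75.0%.

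Hand1 stood apart in matDKO/CAST. In its H3K4me3 peak of ExE (chr11:57824000-57841500) the B6/CAST libraries held 26 maternal and 24 paternal, then 17 and 17 reads, and the CAST/B6 libraries held 22 and 22, then 20 and 13. In matDKO/CAST replicate 2 held 0 and 0 reads and replicate 3 held 83 maternal and 0 paternal reads. The total H3K4me3 at the start of Hand1 in these same libraries was 10.6 and 16.9 RPKM, so reads were present in both.

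In the H3K27me3 peak of ExE over Hand1 (chr11:57824500-57905000) the maternal and paternal reads were 83 and 68, then 74 and 53 in B6/CAST, and 115 and 134, then 85 and 88 in CAST/B6. In matDKO/CAST they were 53 and 24, then 87 and 20, paternal shares of 31.2% and 18.7%. Both were below the 4 wild-type shares. The change of the parental log2 ratio against B6/CAST did not pass without the library in the fit (edgeR, adjusted p = 0.108 for H3K27me3 and 0.337 for H3K4me3). With the library as a block it passed for H3K27me3 (-1.12, edgeR, adjusted p = 0.0232) and the H3K4me3 peak was called too, but there the cross is a single library with 83 maternal reads and none on the paternal side, so the size of that change cannot be given and the call has no replicate. Of all informative ExE peaks, 0.742% and 0.892% changed without the block and 1.31% and 1.98% with it. In the other tables the share of informative peaks that changed was 0.674% for H3K4me3 and 0.179% for H3K27me3 in epiblast, and 0.163% in epiblast and 0.363% in ExE for H3K36me3.

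The processing bears on how this is read. For matDKO/CAST, positions at which 129 and CAST carry the same base were dropped by the authors, who then added reads assigned to 129 to the maternal side only, so the alleles of this cross were not counted over the same variants as in B6/CAST. In epiblast the H3K4me3 peak of Hand1 held 14 and 14, then 21 and 11 reads in B6/CAST and 0 and 0 in both matDKO/CAST libraries, and the H3K27me3 peak held 1 and 0, then 0 and 0. The part of the variant set in the shares of Hand1 was not tested. Over all allelic reads the paternal share was 44.2 to 51.2%, and 44.2 to 48.9% in matDKO/CAST. At the other informative peaks of the 10 genes, 0 changed in matDKO/CAST by edgeR with or without the block.

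**Figure D4:**
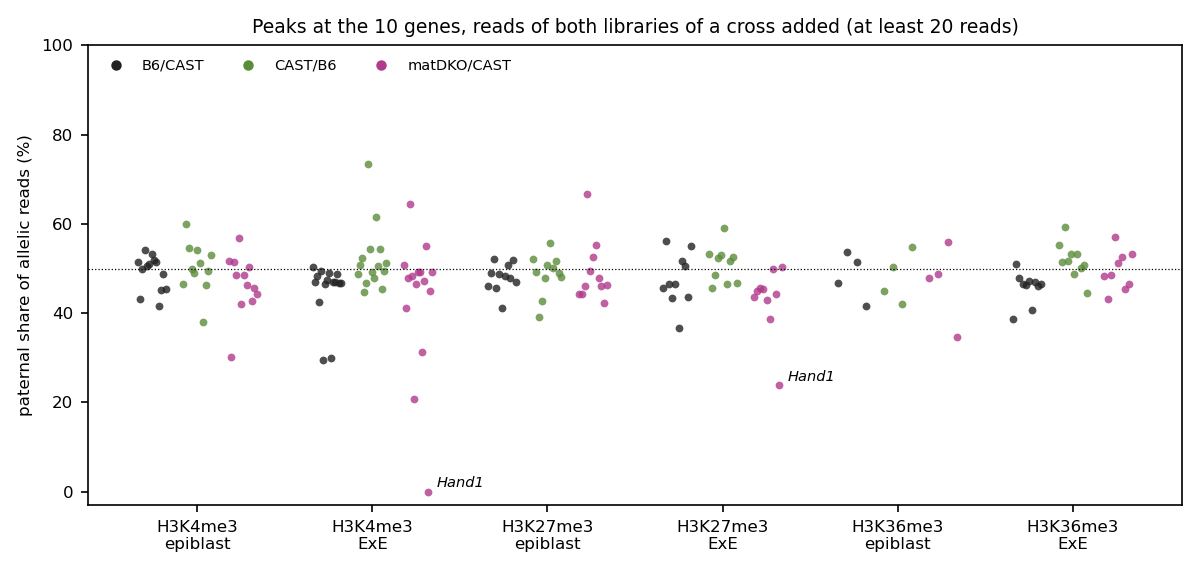
Paternal share in percent of the allelic reads of each informative peak at the 10 genes, by mark, tissue and cross, with the reads of both libraries of a cross added and peaks under 20 such reads left out. Most points lie near the dotted line of equal shares, and Hand1 in ExE of matDKO/CAST lies at 0% for H3K4me3 (83 reads of 1 library) and 23.9% for H3K27me3.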

How the data were processed

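ChIP libraries of epiblast and ExE were grouped by the cross, tissue, mark and replicate number of their labels. Per the labels, the authors trimmed reads with Trim Galore 0.4.4 (the methods give a later version for RNA-seq and none for ChIP), aligned them to GRCm38 (Bowtie2 2.3.2) and split them by parent. The deposited RPKM values, in 1 kb windows, were made in SeqMonk from all aligned reads, with no input subtracted; low values were whole multiples of 1 step in 100% of cases within a tolerance of 0.02 reads, so reads could be recovered. The deposited allelic tables hold raw counts per peak. Of the peak calls that the authors deposited, positions alone were used, since every score is 0; they were called with chromstaR per cross and tissue over both replicates.

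From these, window means were tested with limma 3.58.1 (R 4.3.3) on log2(RPKM + 0.5), and allelic counts with edgeR 4.0.16 (TMM, at least 20 reads on an allele, a call needing both crosses), both two-sided with Benjamini-Hochberg adjustment and a threshold of 0.05. DESeq2 1.42.0 and edgeR on recovered reads were alternatives. The start used was the annotated protein-coding start (GENCODE vM21) with the most H3K4me3 over all libraries, a choice that favours neither tissue by rule but can pass over a start used in 1 tissue; the values at every such start were added after seeing the data. Peak presence needed an overlap of 1 bp, and counts of windows are those in which the 4 libraries of each tissue do not overlap. Gene lists held 53 genes; from each, the 2 largest called differences in each direction at the start are named. The 10 genes and the lists were chosen with earlier results of these data known. Replicates differed by more than counting noise. Same-numbered pools of the tissues deviated together for H3K27me3 (B6/CAST r = 0.35, CAST/B6 r = 0.18), for H3K4me3 in B6/CAST (r = 0.65), the only cross sharing both its numbers for that mark, and for H3K36me3 in B6/CAST (r = 0.29) and matDKO/CAST (r = 0.27), but hardly for H3K36me3 in CAST/B6 (r = 0.08). The labels do not say what a number shares, so the block was an alternative. The scripts were tested on simulated data.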

Additional observations from a re-analysis of the deposited data

Results flagged for a closer look

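Among 100 groups of 4 wild-type libraries (10 genes, marks, regions and tissues), 1 had a library far from the other 3, where chance gives this in about 1 in 20 groups. It was H3K27me3 over Cdx2 and 5 kb around it in ExE, where B6/CAST replicate 2 held 1.44 RPKM and the other 3 libraries held 1.28 to 1.30 RPKM. The gap is small beside the 5.09 to 9.18 RPKM of epiblast.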

How the results depend on the processing

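Of the counts and values that answer a comparison, 447 recomputed under an alternative stayed within 1.5 times of the value given and 25 moved; of the values of single genes and the counts over all genes, 1512 stayed, 38 gained and 86 lost a call, 11 changed sign, and 63 counts over all genes moved by more than that. The number of the 10 genes with more H3K4me3 in ExE at the start was 8 with the median centred, the 40th to 99th percentile scaling, edgeR or DESeq2, 3 at the 5′ end of the gene (0 higher in epiblast there), and 3 to 5 with a library left out: 3 without B6/CAST epiblast replicate 2, B6/CAST ExE replicate 1 or 2, or CAST/B6 ExE replicate 2. Over the gene it was 8 with the median centred, 9 with the percentiles and 3 to 6 with a library left out, 3 without B6/CAST ExE replicate 1. The 1 gene with more H3K27me3 in ExE over the gene (Elf5) became 0 without B6/CAST epiblast replicate 1 or 2, CAST/B6 epiblast replicate 2, B6/CAST ExE replicate 1 or CAST/B6 ExE replicate 2. H3K36me3 peaks in both lists fell to 2 genes in epiblast and 5 in ExE when only peaks above the median length of their list counted. The cause was not tested.

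With the replicate block, the counts for ExE higher and lower were 4 and 1 for H3K4me3 at the start, 5 and 0 over the gene, 0 and 7 for H3K27me3 at the start, 2 and 7 over the gene, and 9 and 0 for H3K36me3; Gata2 and Gata3 lost their H3K4me3 calls at the start and Esrrb that over the gene, and Hand1 gained both. It added 1 gene to the change of the tissue difference in H3K27me3 (Hand1), and within each library 3 strain-specific H3K27me3 peaks and 1 change of the parental ratio each for H3K27me3 and H3K4me3 in ExE, the latter from the reads of a single matDKO/CAST library. It changed no other count of the 10 genes given in the report.

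Signs turned, in genes without a call, for Eomes (H3K36me3, -0.15 with the percentiles and -0.030 with edgeR; H3K4me3 at the start, 0.087 with the median centred and 0.095 with the percentiles), for Esrrb (H3K27me3, 0.57 at the 5′ end), for Ets2 (H3K27me3 at the start, -0.049 within 2 kb and -0.024 to -0.0065 without B6/CAST epiblast replicate 2, CAST/B6 epiblast replicate 2 or B6/CAST ExE replicate 2, and up to 0.099 without CAST/B6 epiblast replicate 1) and for Eomes in matDKO/CAST ExE (H3K36me3, 0.079 without replicate 2 and -0.60 without replicate 3). Satb1 turned to -0.41 at the 5′ end for H3K27me3. Few allelic reads limit 16 of the 79 peaks, which had under 20 on each allele of every wild-type library; depth and the number of usable variants were not told apart. The matDKO/CAST comparisons are limited by 2 pools a group. The values at every annotated start, added after seeing the data, show that the direction of H3K4me3 at Esrrb depends on the start taken.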
